A study of Homo sapiens with 58 samples.

Results

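The integrated stress response genes examined here are ATF4, ATF3, DDIT3, PPP1R15A, PPP1R15B, TRIB3, ASNS and SESN2. They were followed as RNA targets of HuR, the RNA-binding protein encoded by ELAVL1, through all peaks that the combined coverage table assigned to these 8 gene names. The list took in 48 of 387214 peaks and 7 of the 8 genes, against 16031 genes with a peak in the whole table. DDIT3 had no peak, and no peak of any name lay in its RefSeq span on chromosome 12 (57516588 to 57520517, GRCh38.p14).

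The libraries were made by crosslinking and immunoprecipitation of HuR (CLIP-seq) from Huh-7.5, an established human hepatoma line. Cells were mock treated or stressed with 0.5 mM sodium arsenite for 45 min, and all were crosslinked with ultraviolet light on ice. In 12 libraries, labelled WT and without an APEX reaction, nuclear and cytoplasmic fractions were prepared, with 3 libraries for each fraction and treatment. The other 46 libraries came from lines labelled APEX-NLS, APEX-NES and APEX-G3BP1, which carry an ascorbate peroxidase directed to the nucleus, the cytoplasm or the stress granule protein G3BP1, and were labelled with biotin phenol and peroxide in both treatments. Input libraries, from HuR immunoprecipitation alone, numbered 2 mock and 2 arsenite in each of the NLS and NES lines, and 4 mock and 5 arsenite in the G3BP line. The inputs of library set JL1024 carry the replicate label All in place of a number. Enriched libraries, with an added streptavidin capture, numbered 4 and 4 in NLS, 4 and 4 in NES, and 6 and 7 in G3BP. The labels name no promoter or clone for the APEX lines and do not say whether same-group libraries came from separate cultures, so p-values measure the spread between these libraries, which may be technical.

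The integrated stress response begins when kinases such as PERK or HRI phosphorylate the translation factor eIF2 alpha. Bulk translation then falls, while ATF4 mRNA, whose upstream open reading frames restrain it in unstressed cells, is translated more. ATF4 drives ATF3, DDIT3, TRIB3, ASNS and SESN2, and PPP1R15A and PPP1R15B are the regulatory subunits of the phosphatases that reset eIF2 alpha. Arsenite is a standard activator of HRI and of stress granules. HuR binds U-rich and AU-rich stretches in introns and 3'UTRs, is mostly nuclear in unstressed cells and can move to the cytoplasm under stress.

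Values are given as CPM, the CLIP tags in a peak, or in all peaks of a gene with the same annotation class, per 1000000 tags of the library's total. Tags in peaks ranged from 235471 to 673322 in the fraction libraries, from 1353 to 484305 in the inputs and from 519 to 86419 in the enriched libraries, and 16 libraries held fewer than 10000. In 5 replicate pairs of the enriched libraries, all in set JL0388, no difference beyond sampling noise was detected (chi-square per degree of freedom 0.976 to 1.09) and each pair was counted as 1 sample in an alternative. The liver cell markers AFP, ALB and APOB carried tags in all 12 fraction libraries, with 395 to 1470 CPM for AFP, whereas APOA1 and TTR had no peak. Of markers of other cell types, CD3E and COL1A1 had no peak, and the summed level of the list reached 5.46 CPM in the fractions, 117 CPM in the inputs (median 1.12) and 14.9 CPM in the enriched libraries (median 0). In the shallowest libraries 1 tag equals 58.6 CPM in an input and 215 CPM in an enriched library. The nuclear RNA NEAT1 had a median of 438 CPM in the nuclear and 169 CPM in the cytoplasmic fraction, while MALAT1 stood at 2670 and 2560 CPM. CLIP tags count crosslinked RNA, so more RNA and a larger HuR-bound share of it cannot be told apart here.

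Tags were very unevenly spread over the genes. Of 5710 tags in the 48 peaks, ATF3 held 3837 (67.2%) and PPP1R15B 1701 (29.8%). SESN2 had 65 tags in 6 peaks, ASNS 43 in 5, PPP1R15A 38 in 2, TRIB3 14 in 2 and ATF4 12 in 1. Introns carried 71% of the tags of these genes, against 41.8% of all tags in the table, and 3'UTRs carried 27.5% against 23.8%. The intronic share was almost entirely ATF3 and the 3'UTR share almost entirely PPP1R15B, with 1 peak each in a 5'UTR (ATF4), a coding sequence (PPP1R15A) and a transposable element (ATF3). The 5 ASNS peaks were classed as non-coding RNA, where RefSeq places the overlapping gene CZ1P-ASNS. A TRIB3 peak lay 17766 nt before the RefSeq start of the gene and was classed as Other.

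ATF4, the transcription factor at the centre of the response, had a single peak, in its 5'UTR, at chr22:39520569-39520589 on the plus strand. The peak is also annotated as downstream 10K, the region past the end of a gene, and its class is 5'UTR. It is shown because the 5'UTR is the part of ATF4 mRNA that restrains its translation. With a start counted from 0, the site covers bases 11 to 30 after the RefSeq transcription start. The line gives it from the RefSeq promoter sequences (GRCh38.p14) with the 20 bases of the peak in capitals and 4 bases on each side.
ATF4 5'UTR site: tctaCTTTGCCCGCCCACAGATGTagtt
The sequence holds 5 T in its 20 bases.

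The ATF4 site was seen in a handful of tags only. Mock cytoplasmic libraries held 1, 1 and 2 tags and arsenite cytoplasmic libraries none. The nuclear libraries showed the reverse, with none in mock and 2, 1 and 0 after arsenite. In the arsenite test of the cytoplasm and the fraction test in mock, the sum passed the filter only through the mock cytoplasmic libraries. Entering in this way, it could only be lower in the other group, so both differences are a description. The cytoplasmic difference was not called by limma (-0.68 ± 0.22, adjusted p = 0.0581), though 2 of 16 alternatives called it (lowest adjusted p = 0.0145). The 5'UTR value was called lower in the nuclear than in the cytoplasmic mock fraction (log2 difference -0.68 ± 0.24 SE, adjusted p = 0.049). It met the threshold for a difference in arsenite response between the fractions as well (1.08 ± 0.34, adjusted p = 0.0305). The former rests on 4 tags and the latter on 7, with 5'UTR sums called in those directions in 6.77% and 3.30% of cases. The former was lost in 10 of 16 alternatives, edgeR among them (adjusted p = 0.0724), and the latter in 9 of 22, each of which left out 1 library. None of the 29 enriched libraries held an ATF4 tag.

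ATF3, a stress-induced transcription factor of the ATF/CREB family that ATF4 activates, had its tags in an intron. A cluster of 5 peaks within 442 nt (chr1:212589951-212590393, plus strand) held 3809 of its 3837 tags, and the other 3 peaks, from 21764 nt further on, held 28. The cluster lies 24849 nt past the more upstream RefSeq start of ATF3 and 24762 nt before the more downstream start, counted from its highest peak at 212590256. That peak alone collected 3058 tags. By mean CPM it ranked at position 2 of 214982 intron peaks in the cytoplasmic fraction, in mock as in arsenite, and at 14 and 4 in the nuclear fraction.

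In mock cells the ATF3 intron sum was far higher in the cytoplasmic than in the nuclear fraction. The cytoplasmic mock libraries stood at 319, 304 and 411 CPM and the nuclear mock libraries at 45.2, 51.8 and 59.9 CPM. Every cytoplasmic library lay above every nuclear library. The log2 difference, nuclear minus cytoplasmic, was -2.67 ± 0.17 (SE, limma, adjusted p = 1.95e-07). Over all gene-class sums tested, 29.0% were called in this comparison, 16.3% as lower in the nucleus. Among intron sums, 1.93% were called lower in the nucleus, the median was 0.47, and 10 of 7829 had a more negative difference than ATF3. The direction of ATF3 is thus opposite to that of most intron sums, of which 18.6% were negative.

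**Figure D1:**
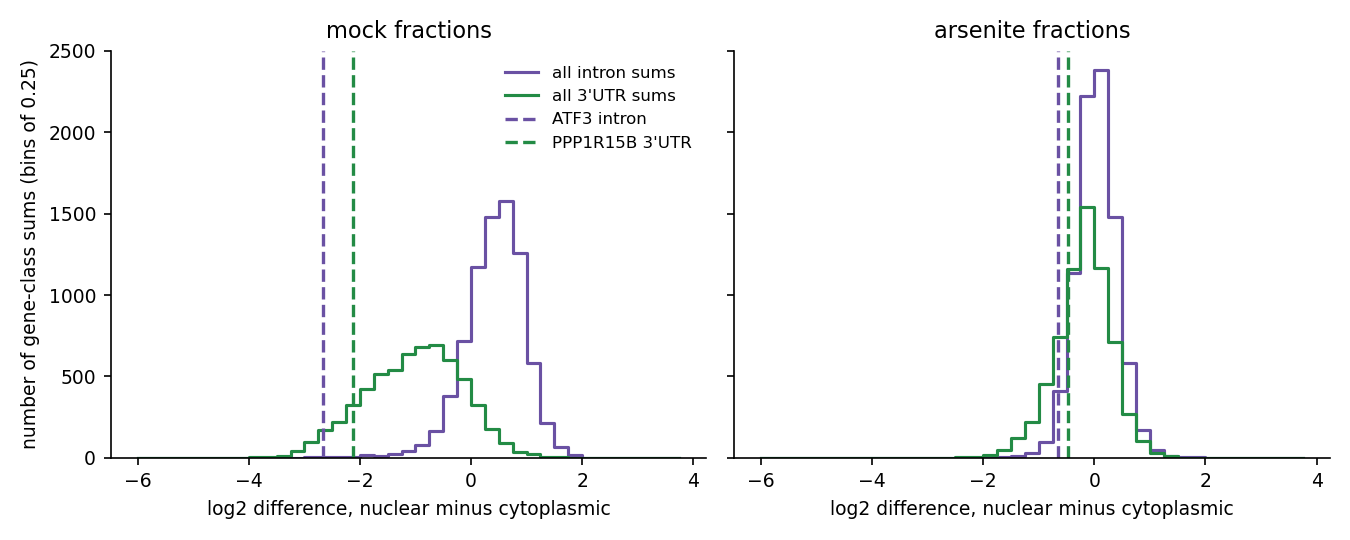
Distribution of the log2 difference, nuclear minus cytoplasmic, over all tested intron and 3'UTR sums (x axis, bins of 0.25; y axis, number of sums) in mock and arsenite fractions, with dashed lines at ATF3 intron and PPP1R15B 3'UTR. In mock the ATF3 line at -2.67 sits at the far left of the intron sums, whose median was 0.47, and in arsenite it stands at -0.66, with 268 of 8590 intron sums further left, and PPP1R15B at -0.47, with 1726 of 6613 3'UTR sums further left.

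Arsenite moved the ATF3 intron sum in opposite directions in the fractions. Cytoplasmic libraries fell from 319, 304 and 411 CPM in mock (345 ± 57.9 SD, n = 3) to 172, 182 and 153 CPM (169 ± 14.7 SD, n = 3). Nuclear libraries rose from 45.2, 51.8 and 59.9 CPM (52.3 ± 7.36 SD, n = 3) to 102, 110 and 106 CPM (106 ± 3.97 SD, n = 3). Neither pair of groups overlapped. The log2 difference was -1.01 ± 0.15 in the cytoplasm (limma, adjusted p = 0.000538) and 1.00 ± 0.13 in the nucleus (adjusted p = 0.000374). Of all sums tested, 13.0% were called in the cytoplasm (6.38% as lower) and 5.83% in the nucleus (4.28% as higher). Among intron sums only, 1.06% were called lower in the cytoplasm and 0.925% higher in the nucleus.

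The difference between the arsenite responses was itself called, at 2.01 ± 0.20 on the log2 scale (limma, adjusted p = 5.63e-12). This test called 10.5% of all sums, 6.67% in the direction of ATF3, and 0.562% of intron sums in that direction. The median of the intron sums was -0.35, and 10 of 9423 exceeded ATF3. In arsenite the cytoplasmic excess was smaller but remained called, with a nuclear minus cytoplasmic difference of -0.66 ± 0.11 (adjusted p = 0.000424), where 4.72% of all sums were called, 3.18% as lower, and 0.757% of intron sums as lower.

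Leaving out 1 library ended some of these calls without changing the size of the difference. Without arsenite cytoplasmic library 2, the cytoplasmic fall was -1.07 (limma, adjusted p = 0.0552), and without arsenite nuclear library 3 the nuclear rise was 1.00 (adjusted p = 0.0625). The fraction difference in arsenite was likewise lost without either of these libraries (adjusted p = 0.0745 and 0.0825). The mock fraction difference and the difference between responses were called in every alternative run.

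**Figure D2:**
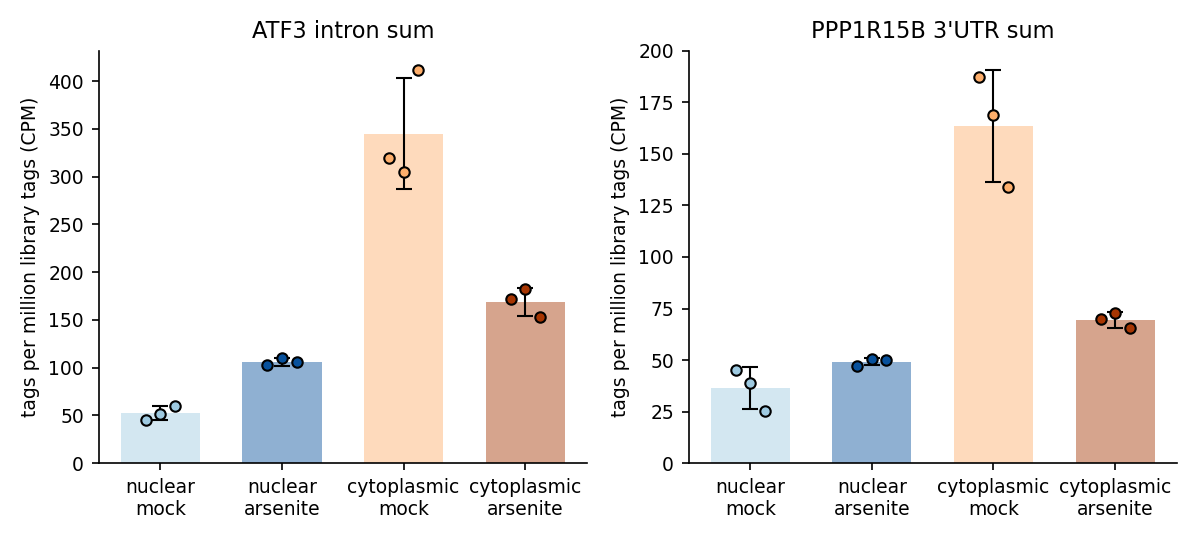
CPM of the ATF3 intron sum and the PPP1R15B 3'UTR sum in the 12 fraction libraries; bars are means of 3 libraries, error bars are SD and points are libraries. For both genes the mock cytoplasmic libraries are the highest, and for ATF3 arsenite brings the cytoplasmic mean down to 169 CPM and the nuclear mean up to 106 CPM.

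Within the ATF3 cluster the peaks did not all follow the highest one. The peak at 212590256 stood at 277, 265 and 360 CPM in mock cytoplasm and at 126, 143 and 125 CPM after arsenite. It was called lower in the single-peak test (-1.17 ± 0.16, limma, adjusted p = 0.0117), where 0.760% of 193897 peaks were called, 0.520% as lower, and 0.0424% of intron peaks as lower. This call was lost without mock cytoplasmic library 2 (adjusted p = 0.245) and under edgeR with TMM scaling (0.193). The neighbouring peaks at 212590010 and 212590133 had mean levels of 15.7 and 15.4 CPM in mock cytoplasm and 13.6 and 16.7 CPM after arsenite, and neither was called. The peak at 212590373 went from 10.8 to 4.24 CPM (adjusted p = 0.0938).

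The share of the intron sum held by the highest peak was 87% ± 0.388 (SD, n = 3) in mock cytoplasm and 77.7% ± 4.22 after arsenite. In the nucleus it was 70.9% ± 11.7 and 66.8% ± 1.1. The cytoplasmic groups did not overlap, but an exact two-sided permutation test of 3 against 3 libraries gave p = 0.1, the smallest it allows (0.2 after adjustment over 4 such tests). The peak was picked by its mean over these same fraction libraries, and it was highest in mock cytoplasm. The shares and the sums without it are therefore a description. Without the highest peak the cytoplasmic difference of the sum was -0.24 (limma, adjusted p = 0.492) and the fraction difference in arsenite -0.07 (adjusted p = 0.883). The nuclear rise was as large without that peak (1.16, adjusted p = 0.0135), and the mock fraction difference was -1.48 (adjusted p = 0.00145). All 5 peaks of the cluster had positive nuclear differences, from 0.48 to 1.48, and none of them passed the single-peak threshold, where 0.186% of 200232 peaks were called. The highest peak (0.92 ± 0.18, limma, adjusted p = 0.0945) was called in 2 of 14 alternatives, with no filter (5.89e-06) and with tags required in every library of a group (0.00623).

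**Figure D3:**
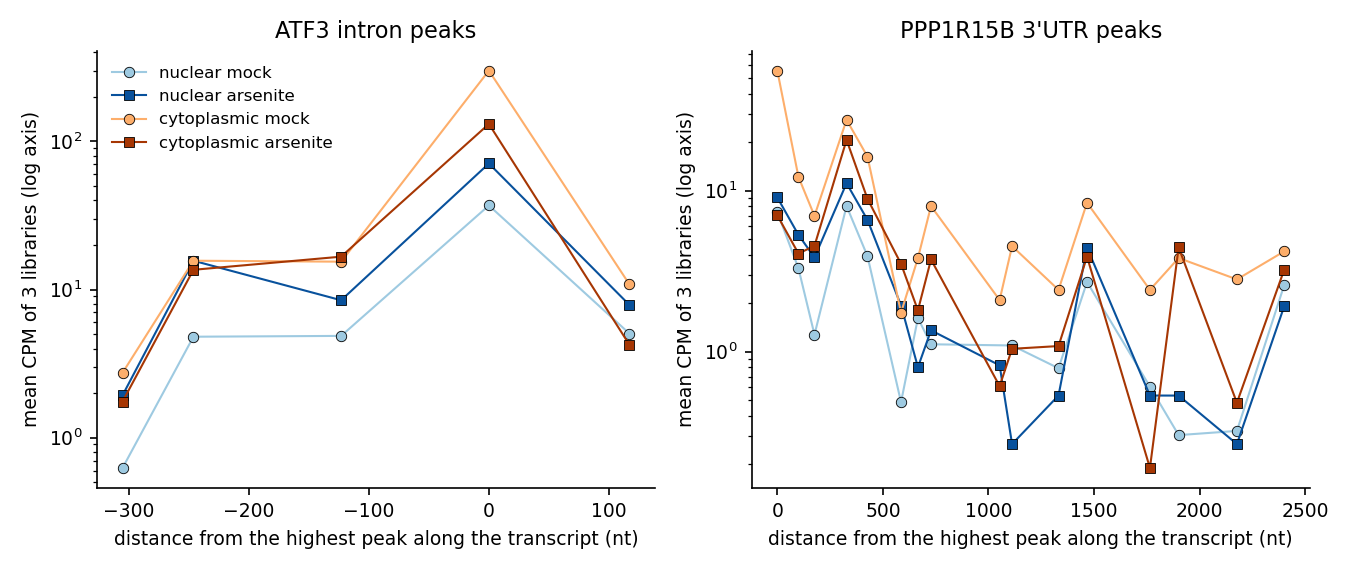
Mean CPM of 3 libraries (log axis) for each peak of the ATF3 intron cluster and of the main PPP1R15B 3'UTR cluster, by distance along the transcript from the peak with the highest mean over all 12 libraries; group means of 0 are not drawn. In CPM, the mock and arsenite cytoplasmic means differ most at distance 0, where ATF3 goes from 300.3 to 131 CPM and PPP1R15B from 55.6 to 7.02 CPM.

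The remaining ATF3 peaks carried few tags. The peak in a transposable element at 212613398 had 5 tags in the arsenite nuclear libraries, 1 in the mock nuclear libraries, 1 in mock cytoplasm and none in arsenite cytoplasm. Of the peaks classed as retained intron, that at 212612157 had tags in the fractions only after arsenite, with 7 in the cytoplasm and 1 in the nucleus. The other, at 212613328, had 4 tags in the fractions, all in the arsenite nuclear libraries.

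Over the 12 fraction libraries, the intron sums most like that of ATF3 in log2 CPM were those of KDM4C (Pearson r = 0.976), H2AZ2 (0.968) and CEP112 (0.964), among 918 intron sums with at least 0.25 of its mean level. The 12 libraries share 4 groups and 1 library set, so these correlations mostly describe group means. KDM4C, a histone demethylase gene, had mean values of 657 and 257 CPM in mock and arsenite cytoplasm and of 100 and 172 CPM in mock and arsenite nuclei. H2AZ2 and CEP112 had the same order of the 4 groups, with 106 and 143 CPM in mock cytoplasm as the highest.

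PPP1R15B, the constitutive regulatory subunit of the eIF2 alpha phosphatase (also called CReP), had 24 peaks, 17 of them in its 3'UTR. Of these, 16 lay within 2421 nt (chr1:204403531-204405952, minus strand). The peak with the highest mean over the 12 fraction libraries, at 204405932, is the most upstream of the 3'UTR peaks on this strand. That mean rests on mock cytoplasm (55.6 CPM), and in each of the other 3 groups the peak at 204405604, picked as the highest in mock nuclei, was higher. The peak at 204405932 is annotated both as 3'UTR and as intron, and its class is 3'UTR. The 3'UTR sum was 187, 169 and 134 CPM in mock cytoplasm (163 ± 27.1 SD, n = 3) and 45.2, 39.1 and 25.1 CPM in mock nuclei (36.5 ± 10.3 SD, n = 3). The groups did not overlap, and the nuclear minus cytoplasmic difference was -2.12 ± 0.22 (limma, adjusted p = 9.7e-06). Unlike ATF3, PPP1R15B lay on the same side as most sums of its class: 89.2% of 3'UTR sums were negative and 49.8% were called lower in the nucleus.

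After arsenite the PPP1R15B 3'UTR sum in the cytoplasm fell to 70, 72.8 and 65.4 CPM (69.4 ± 3.73 SD, n = 3), below all mock libraries (log2 difference -1.20 ± 0.16, limma, adjusted p = 0.000228). Of 3'UTR sums, 18.3% were called lower there, and 613 of 6707 had a more negative difference. In the nucleus the arsenite libraries stood at 47.2, 50.4 and 50.2 CPM, above each of the mock libraries, but the difference of 0.45 ± 0.19 was not called (adjusted p = 0.21). It is near the median of all 3'UTR sums, 0.39, of which 13.6% were called higher. The responses of the fractions differed by 1.65 ± 0.25 (adjusted p = 1.21e-06), a direction in which 23.8% of 3'UTR sums were called. In arsenite the nuclear minus cytoplasmic difference was -0.47 ± 0.14 (adjusted p = 0.0463), a call that 9 of 16 alternatives lost, including each of the 6 that left out 1 library (adjusted p up to 0.208). Of 3'UTR sums, 9.66% were called lower there.

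Of the PPP1R15B 3'UTR peaks, 1 was called in the single-peak test of the cytoplasm. This peak, at 204405932, had 74.5, 43.8 and 48.5 CPM in mock cytoplasm and 3.61, 9.1 and 8.35 CPM after arsenite (log2 difference -2.66 ± 0.32, limma, adjusted p = 0.00744), where 2.69% of 3'UTR peaks were called lower. Leaving out any of the 3 mock cytoplasmic libraries ended this single-peak call (adjusted p from 0.0928 to 0.245), though the difference kept its size (-2.44 to -2.81). The peak 328 nt further into the 3'UTR, at 204405604, went from 27.5 ± 3.7 to 20.6 ± 2.2 CPM (SD, n = 3) and was not called (adjusted p = 0.497). Mock cytoplasm was the only fraction group in which 204405932 was the higher of the pair: 204405604 exceeded it in mock nuclei (8.02 against 7.37 CPM), arsenite nuclei (11.1 against 9.07) and arsenite cytoplasm (20.6 against 7.02). The pair was picked by these same values, 204405604 as the highest 3'UTR peak in mock nuclei. The order in the mock groups is therefore a description and not a test.

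The peak at 204405932 held 34% ± 7.2 (SD, n = 3) of the 3'UTR sum in mock cytoplasm and 10.1% ± 4.32 after arsenite. These shares are a description, since the peak was picked by a mean that its mock cytoplasmic values set. In mock and arsenite nuclei it held 22% ± 11 and 18.4% ± 2.03. Without it the cytoplasmic fall of the 3'UTR sum was -0.75 (limma, adjusted p = 0.0112). Of the 16 PPP1R15B 3'UTR peaks tested in the cytoplasm, 14 had a negative difference, and the peak at 204405346 had the largest positive value (0.65, adjusted p = 0.454). In the nucleus 9 of 13 were positive and none was called.

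The 7 PPP1R15B peaks classed as intron, 6 of them of the retained intron class, had 14 tags in mock and 22 in arsenite cytoplasm, and 11 in mock and 29 in arsenite nuclei. The nuclear libraries stood at 4.37, 5.46 and 1.93 CPM in mock and at 8.81, 6.4 and 8.66 CPM after arsenite, without overlap. The difference of 0.76 ± 0.33 was not called (limma, adjusted p = 0.21). In the cytoplasm it was 0.09 ± 0.35.

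PPP1R15A, the stress-induced subunit of the same phosphatase (GADD34), carried few tags. Its 3'UTR peak on chromosome 19 at 48876021 had 1 tag in mock and 5 in arsenite nuclei, and 4 in mock and 3 in arsenite cytoplasm. Its coding sequence peak at 48874935 had 2, 6, 1 and 3 tags in the same order. No difference was called, and the interval of the 3'UTR response in the nucleus ran from -0.06 to 1.06 on the log2 scale.

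Of the other ATF4 targets, TRIB3, a pseudokinase that inhibits AKT, had an intron peak on chromosome 20 at 387822 with 1, 2 and 1 tags in the arsenite nuclear libraries and none in the other 9 fraction libraries. The nuclear response was 0.55 ± 0.21 (limma, adjusted p = 0.152). ASNS, asparagine synthetase, had 7 and 5 tags in mock and arsenite nuclei and 2 and 9 in mock and arsenite cytoplasm. Its peak at 97871477 had 4 tags in mock nuclei and none in arsenite nuclei (-0.69 ± 0.24, adjusted p = 0.21). The interval of its difference between responses ran from -2.03 to 0.03 (adjusted p = 0.24). SESN2, sestrin 2, a leucine sensor that restrains mTORC1, had 8 and 14 intron tags in mock and arsenite nuclei and 5 and 13 in mock and arsenite cytoplasm, with differences of 0.41 ± 0.46 and 0.34 ± 0.34. Its highest peak over the fractions, at 28272036 on chromosome 1, had 2 and 3 tags in mock and arsenite nuclei and 3 and 4 in mock and arsenite cytoplasm (cytoplasmic difference -0.12 ± 0.30, adjusted p = 0.875). The peak at 28269494, chosen after its values were seen, had 6 tags in arsenite cytoplasm and none in mock cytoplasm (0.66 ± 0.20, adjusted p = 0.0938). None of these genes had a called sum in any comparison. The TRIB3 sum and the peaks at 97871477 and 28269494 passed the filter of these tests only through the group in which they had tags, which set their direction. At 1 or 2 tags a library, log2 differences on this scale are compressed by the pseudocount of 2.28 CPM.

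Counted over the genes, 8 of the 11 gene-class sums passed the filter in the cytoplasm and 2 were called, both lower, beside 13.0% of all sums called. In the nucleus 9 passed and 1 was called, as higher, beside 5.83%. In the comparison of fractions, 3 of 8 were called in mock beside 29.0% of all sums, and 2 of 8 in arsenite beside 4.72%, all lower in the nucleus. All 11 passed the filter for the difference between responses, where 3 were called beside 10.5%. The medians over the sums that passed were -0.09 in the cytoplasm and 0.45 in the nucleus, beside 0.07 and 0.04 over all sums tested. All calls came from ATF3, PPP1R15B and ATF4. The ATF4 sum entered the mock comparison of fractions only through the mock cytoplasmic libraries, where it is high, and 10 of 16 alternatives lost that call. Its call for the difference between responses was lost in 9 of 22.

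**Figure D4:**
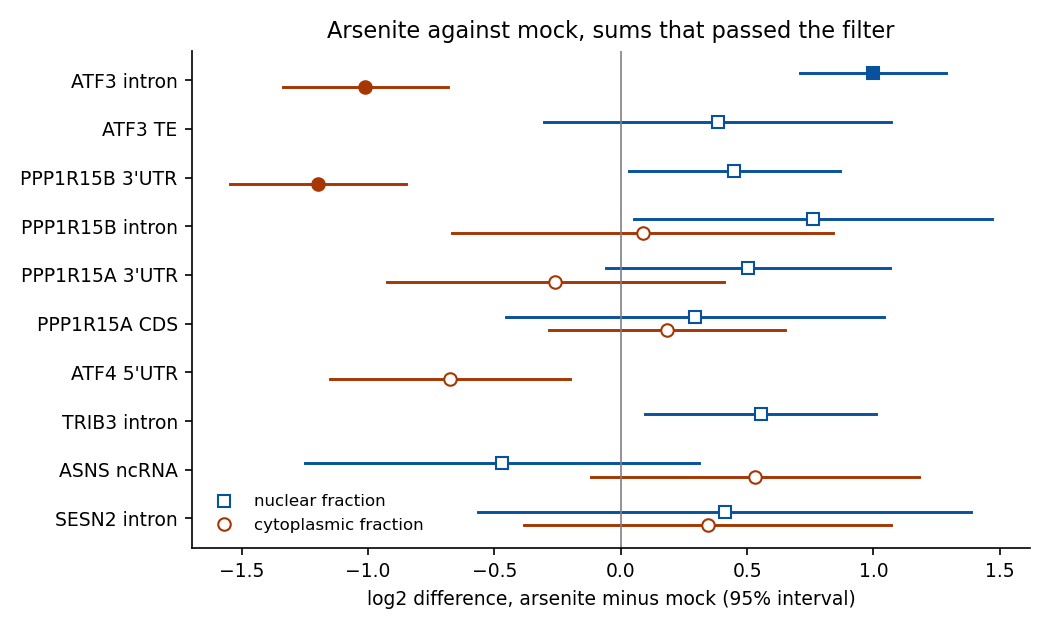
Log2 difference, arsenite minus mock, with its 95% interval from limma for each gene-class sum of the stress response genes that passed the filter in the nuclear (squares) or cytoplasmic fraction (circles); filled symbols are called at an adjusted p under 0.05. Filled symbols are ATF3 intron in both fractions, at 1.00 and -1.01, and PPP1R15B 3'UTR in the cytoplasm, at -1.20.

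In the input libraries of the APEX lines, which were made from lysed whole cells, the ATF3 intron sum was higher after arsenite. In the NLS line it was 45.1 and 62.1 CPM in mock and 66.7 and 104 CPM after arsenite, and in the NES line 44.4 and 57.9 against 56.9 and 81.6 CPM. In the G3BP line mock inputs had 50.6, 56.9, 40.5 and 0 CPM and arsenite inputs 176, 96.5, 106, 59.1 and 171 CPM. The library at 0 had a total of 22476 tags, at which 3 tags equal 133 CPM, and the values of 50.6 and 176 CPM rest on 1 and 3 tags. No gene-class sum was called in the inputs by limma (0% of 11751, 1200 at an unadjusted p under 0.05), with ATF3 at 1.38 ± 0.59 (adjusted p = 0.471). The edgeR fit on whole tags with library totals called 805 sums, ATF3 among them (0.72, adjusted p = 0.032), and with TMM scaling 266, without ATF3 (0.73, adjusted p = 0.362).

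Within each line and library set, arsenite inputs exceeded mock inputs for ATF3 in 7 of 7 comparisons. Over all sums tested in the inputs the limma median was also positive, at 0.25. How many other sums were higher in every comparison was not counted. The mean log2 difference was 1.43, given as a description because this comparison was chosen after seeing the data. Without the libraries under 10000 tags the mean was 0.57, with 6 of 6 comparisons higher and a range of 0.34 to 0.80. The larger mean rests on the G3BP library at 0, whose set alone gave 6.25.

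PPP1R15B 3'UTR values in the inputs differed widely between library sets. Set JL1024 gave 3.05 and 8.27 CPM in mock NLS and NES inputs and 3.36 and 8.16 CPM after arsenite, which are 8 and 6 tags in NLS but 1 and 1 in NES. It gave 0 and 22.1 CPM in mock and arsenite G3BP inputs, where 1 tag of the mock library equals 44.5 CPM. Set JL0388 gave 31.5, 18 and 32.7 CPM in mock NLS, NES and G3BP inputs and 50.5, 56.9 and 44.6 CPM after arsenite. In the G3BP line's JL0361 set, mock inputs had 0 and 4.74 CPM (0 and 1 tags) and arsenite inputs 0, 42.4 and 46.4 CPM, and 1 tag equals 50.6 and 58.6 CPM in the mock and arsenite libraries at 0. Arsenite was higher in 6 of 7 comparisons, with a mean log2 difference of 1.17. Without the libraries under 10000 tags it was 0.90, higher in 5 of 6. The limma fit gave 1.32 ± 0.66 (adjusted p = 0.489) and edgeR 0.99 with library totals (adjusted p = 0.0202) and 0.98 with TMM (adjusted p = 0.118). The limma median over all sums tested in the inputs was 0.25.

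**Figure D5:**
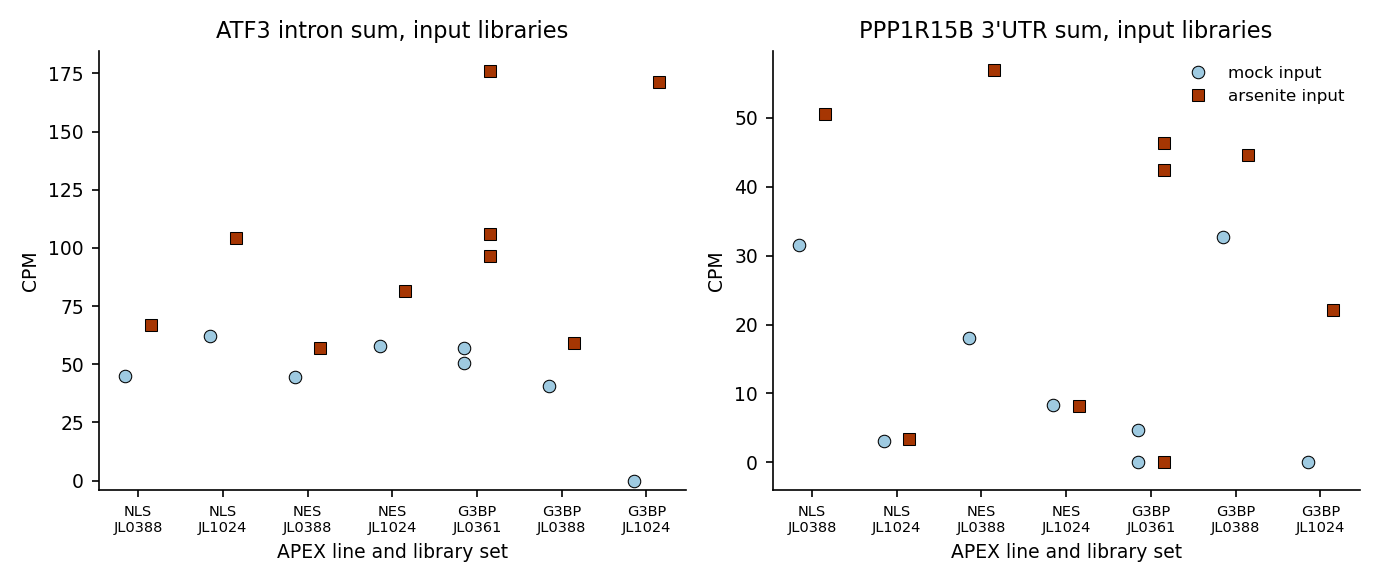
CPM of the ATF3 intron sum and the PPP1R15B 3'UTR sum in the 17 input libraries, by APEX line and library set; each point is a library, circles mock and squares arsenite. For ATF3 the arsenite points lie above the mock points in each of the 7 columns; for PPP1R15B the NES JL1024 points are 1 tag each, and the 3 points at 0 come from libraries where 1 tag equals at least 44.5 CPM.

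The other 5 genes with peaks had few tags in the 17 inputs together. PPP1R15A had 9, TRIB3 5, ASNS 13, SESN2 20 and ATF4 5. The intron sum of PPP1R15B reached 29.8 and 11.6 CPM in G3BP arsenite inputs 2 and 3 and was at or below 4.79 CPM in every other input.

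In the enriched libraries the stress response genes were measured by few tags, 616 in 29 libraries, of which 506 were ATF3. ATF3 intron values in the NLS enriched libraries were 34.5, 27.3, 26.5 and 46.1 CPM in mock and 41.6, 17.8, 47.8 and 61 CPM after arsenite, overlapping. The NES enriched libraries had 52.9, 19.9, 26.2 and 9.48 CPM in mock and 0, 39.4, 12.4 and 33.6 CPM after arsenite, also overlapping, with at most 19 tags a library. Differences were 0.22 ± 0.36 (limma, adjusted p = 0.935) and -0.76 ± 0.97 (adjusted p = 0.909), with an interval from -2.85 to 1.34 in NES.

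In the G3BP enriched libraries ATF3 differed by library set. Set JL1024 had 174 and 197 CPM in mock and 214 and 269 CPM after arsenite, whereas set JL0361 had 0 and 19.8 CPM in mock and 0, 57.9 and 72.5 CPM after arsenite. Set JL0388 had 67.8 and 0 CPM in mock and 78.9 and 0 CPM after arsenite. In each library at 0, 1 tag equals at least 35.6 CPM, so a value of 0 does not show absence there. With library set in the model the difference was 0.75 ± 1.12 (limma, adjusted p = 0.755), beside a median of 0.77 over all sums tested.

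PPP1R15B 3'UTR tags in the G3BP enriched libraries numbered 0, 0, 2, 0, 2 and 4 in mock and 0, 12, 18, 13, 2, 1 and 3 after arsenite. The difference of 2.22 ± 1.10 was not called (limma, adjusted p = 0.304), and it was 0.56 without the libraries under 10000 tags (adjusted p = 0.701). With all libraries the median over all sums was 0.77. In the NLS and NES enriched libraries PPP1R15B reached at most 7 and 5 tags, and its differences of 0.78 ± 0.59 and -1.04 ± 1.05 had intervals that included 0. No sum was called in the G3BP, NLS or NES enriched comparisons by limma (0% of 2644, 5461 and 1613 sums, with 427, 351 and 107 at an unadjusted p under 0.05), and edgeR called 117, 2 and 0. Neither ATF3 nor PPP1R15B was called by edgeR in any of them.

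Other genes of the pathway were read from a list of 58 that covers the eIF2 alpha kinases, eIF2 and eIF2B subunits, ATF4 targets for amino acid synthesis, transport and tRNA charging, and related factors. Of these, 51 had a peak. After arsenite in the cytoplasm, 4 of their 106 tested sums were higher and 11 lower (14.2%, against 13.0% of all sums). All 11 lower sums were 3'UTRs and all 4 higher sums were introns. Over all genes the classes split in the same way. Of 3'UTR sums 18.3% were called lower and 0.909% higher, and of intron sums 1.06% lower and 13.1% higher. PSPH, a serine synthesis enzyme, had the steepest fall in its 3'UTR (-2.22 ± 0.25, limma, adjusted p = 3.94e-05). The amino acid transporter SLC38A2 fell in its 3'UTR (-1.50 ± 0.14, adjusted p = 7.49e-06) and rose in introns (1.23 ± 0.20, adjusted p = 0.00106). The cystine transporter SLC7A11 (-1.21), the endoplasmic reticulum chaperone HSPA5 (-1.20), the bZIP factor CEBPG (-1.08) and the endoplasmic reticulum oxidase ERO1A (-0.98) also fell in the 3'UTR.

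In the nucleus 5 of 103 sums of that list rose and none fell (4.85%, against 5.83% of all sums, 4.28% as higher). All of them were 3'UTRs: TARS1 (1.56), SESN3 (1.15), XPOT (1.04), EIF2S3 (0.73) and SLC38A2 (0.44). Over all genes 13.6% of 3'UTR sums and 0.925% of intron sums were called higher there. EIF2S3, SLC38A2 and SESN3 were called in both fractions with opposite signs, as the ATF3 intron was. In mock, 16 of 102 sums were lower in the nucleus, all 3'UTRs, and 9 were higher, all introns (24.5% in all, against 29.0% of all sums and, for lower, 49.8% of 3'UTR sums). Of the intron sums of all genes, 24.7% were called higher. No intron sum of the 58 genes was called lower in the nucleus. Over all genes 1.93% of intron sums were called so in mock. For the difference between responses, 12 of 127 sums were called in the positive direction of ATF3 and PPP1R15B, all 3'UTRs, and 5 in the other direction (13.4% in all, against 10.5% of all sums, with 23.8% of 3'UTR sums called in the positive direction). The 5 were NFE2L2 in introns and non-coding RNA, SESN1 and EIF2AK3 in introns, EIF2S1 in a transposable element. In the inputs and enriched libraries none of the list was called by limma.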

How the data were processed

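HuR CLIP-seq was measured in 58 libraries. The authors' deposited table gives a signal per peak and library; from the values, each is the number of whole CLIP tags in a 20-nt peak divided by the library's total, and whole tags were recovered for 100% of values within 0.1 tag. Alignment with Bowtie2 to GRCh38.p14, SAMtools, bedtools and HOMER are named in the submitters' processing notes, without versions; the treatment of PCR duplicates is not given in the sources used here. Coordinates are as deposited, and no source used here gives their base (0 or 1). Of 395471 lines, 8257 repeated another line and were dropped. No column was left unmapped.

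Tags were summed per gene and annotation class (32529 sums). Sums, and for arsenite in each fraction also single peaks, were tested with limma 3.58.1 (lmFit, eBayes with trend, R 4.3.3) on log2(value + 2.283806e-06), with Benjamini-Hochberg adjustment over all features and a threshold of 0.05. A feature needed tags in as many libraries as the smaller group. Line and library set were covariates in inputs, library set in enriched libraries. Fits used only the groups compared, and all 4 fraction groups for the difference between responses. edgeR 4.0.16 on whole tags was an alternative; others changed scaling, pseudocount, filter and libraries. Intervals for shares and limits of 3 tags cover counting error only, and total tags set the precision of each library. The fits were tested on simulated data. The members and lists were chosen with earlier results of these data known. All members are named, with their highest and highest exonic peaks over the fractions and any called peak; further peaks were named after their values were seen. From the pathway list, genes are named only if called in a fit of the fraction libraries, the difference between responses included. All fraction libraries are in set JL0380. Tables and exact tests used pandas 2.3.3 and scipy 1.17.1 under Python 3.11.15, and figures matplotlib 3.10.9.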

Additional observations from a re-analysis of the deposited data

Results flagged for a closer look

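The arsenite response differed between the nuclear and the cytoplasmic fraction, by limma's test of that difference, for the ATF3 intron (2.01), the PPP1R15B 3'UTR (1.65) and the ATF4 5'UTR (1.08, from 7 tags, with 0.32 to 6.96 over the alternatives and the call lost in 9 of 22). Within groups of 4 to 7 libraries, 25 combinations of sum and group were checked for a library far from the others. The rule is set to flag about 1 in 20 by chance in normal data. Its rate for sums of few tags in shallow libraries was not tested. PPP1R15B 3'UTR reached 136 CPM in G3BP enriched mock library 3, which is 2 tags in a library of 14760. It stood at 32.7 CPM in G3BP mock input 3, from 25 tags, with 0, 1 and 0 tags in the other mock inputs of that line, where 1 tag equals 50.6, 4.74 and 44.5 CPM. ASNS and SESN2 each stood at 13.9 CPM in NLS enriched arsenite library 1, which is a single tag each.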

How the results depend on the processing

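The ATF3 intron and PPP1R15B 3'UTR differences between fractions in mock, their differences between responses, and the cytoplasmic fall of PPP1R15B kept direction and call in all 16, 22 and 16 alternatives run. Reversed signs concerned uncalled differences in enriched libraries. For ATF3 these were G3BP centred on the median difference of all sums (-0.0124), NLS without mock replicate 3 (-0.0034), and NES under edgeR with library totals (0.0346), under edgeR with TMM (1.20) and without arsenite replicate 1 (0.30). For PPP1R15B it was NES under edgeR with TMM (0.45). With 1 library left out, ATF3 ranged from -0.0034 to 0.52 in NLS and from -1.38 to 0.30 in NES. Counts of called sums over all genes moved by more than 1.5 times as follows. With single libraries removed, the cytoplasm had 385 to 3004 calls (3147 with all libraries), the nucleus 20 to 904 (1362), the fraction comparison 3907 to 5356 in mock (6479) and 138 to 775 in arsenite (1189), and NLS 0 to 1 (0). For single peaks the same step gave 0 to 16959 in the cytoplasm (1473) and 1 to 8614 in the nucleus (372). Requiring tags in every library of a group gave 2468 nuclear sums, 25 in inputs, 78 in G3BP, 53 in NES, and 28883 cytoplasmic and 14267 nuclear peaks. edgeR with library totals gave 805 in inputs, 117 in G3BP, 2 in NLS, and 2800 cytoplasmic and 755 nuclear peaks; with TMM it gave 266 in inputs and 101 nuclear peaks. No filter gave 1 in NLS, 1 in NES and 865 nuclear peaks. A pseudocount 4 times smaller gave 6762 cytoplasmic and 150 nuclear peaks. Inputs without libraries under 10000 tags gave 1, and possible duplicates counted once gave 2 in NLS. Correlations between the deviations of same-numbered libraries from their group means were -0.0117 to 0.031 in the fractions, 0.124 and 0.139 for the 2 input pairs, and up to 0.104 (G3BP), 0.101 (NES) and -0.00525 (NLS) in enriched libraries, so replicate numbers were not treated as pairs. The replicate block gave 2347 cytoplasmic peaks and, of the member calls, ended that of the ATF4 5'UTR between fractions in mock (adjusted p = 0.072). The cause of these shifts was not tested. Depth limits every member but ATF3 and PPP1R15B, and both of these in the NES and several G3BP libraries.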
